A study of Mus musculus with 12 samples.

Results

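Macrophage identity genes are genes whose transcripts mark macrophages and their monocyte precursors. The set described here holds 35 mouse genes, chosen by symbol, out of 55573 genes in each gene table, and all 35 were found once. They encode lysozyme, receptors, complement, antibody receptors and their adaptors, lectins, integrins, lysosomal proteins and proteins of the leukocyte skeleton. They were measured in polyadenylated RNA of PB3, a mouse breast cancer line labelled negative for estrogen receptor, progesterone receptor and HER2, in 12 libraries, 3 for each of 4 groups. The untreated parental line made up the Control group. Its derivatives resistant to eribulin (spelled Erubilin in the labels) are named ERI-R, those resistant to paclitaxel PAC-R and those resistant to vinorelbine VIN-R. The labels list 300, 500 and 800 nM for each drug and call the resistant cells clones, without saying whether a line is 1 clone. Each drug targets microtubules, which paclitaxel holds stable and which eribulin and vinorelbine keep from growing. The labels describe these as cultured tumour cells only, and nothing in them names macrophages. The replicates are numbered but are not said to be separate cultures, so a p-value here measures only the spread between these samples.

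Macrophages are phagocytes of the innate immune system that engulf microbes, dead cells and antibody-coated particles. The transcription factor PU.1, encoded by Spi1, sets up the myeloid programme by binding purine-rich DNA around a GGAA core near the genes of that programme, and the growth factor CSF1 keeps macrophages alive through its receptor. Breast tumours are often rich in macrophages, while a pure culture of carcinoma cells is not a usual source of their transcripts.

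Stretches of 5 promoters are shown first, because Spi1 is itself in the set. They come from complement genes, a chemokine, an integrin and an antibody receptor, and were picked as examples that carry a searched motif. Promoter sequence from RefSeq (build GRCm38.p6) was matched for 26 of the 35 genes, and the 250 bases before each start were searched on both strands. Capitals mark the match, and each stretch reads 5′ to 3′ on the strand of its gene. C1qb (chr4:136886201-136886260, minus strand), C1qc (chr4:136893072-136893139, minus strand), Pf4 (chr5:90772395-90772434, plus strand) and Itgam (chr7:128062526-128062639, plus strand) carry purine-rich PU.1 motifs, and Fcgr1 (chr3:96294040-96294108, minus strand) carries a STAT motif of the kind named GAS.
C1qb: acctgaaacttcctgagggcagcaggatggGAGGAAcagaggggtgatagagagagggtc
C1qc: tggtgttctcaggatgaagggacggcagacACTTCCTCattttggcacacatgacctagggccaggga
Pf4: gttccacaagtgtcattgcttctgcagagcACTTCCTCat
Itgam: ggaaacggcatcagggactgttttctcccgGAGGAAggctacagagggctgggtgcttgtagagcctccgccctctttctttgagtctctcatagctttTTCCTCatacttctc
Fcgr1: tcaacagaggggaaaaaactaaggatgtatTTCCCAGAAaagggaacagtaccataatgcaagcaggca
In C1qb, the short motif GAGGAA starts 30 bases before the RefSeq start. In C1qc and Pf4, the longer motif GAGGAAGT, read on the opposite strand, lies 195 and 10 bases before it. Itgam has 2 matches to GAGGAA, 1 on each strand. The Fcgr1 motif, searched as TTCNNNGAA, lies 109 bases before the start.

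The short motif GAGGAA, which is contained in GAGGAAGT, was found for 13 of the 26 genes (50%), against 25.9% of 27025 genes with promoter sequence. A gene was counted when any of its promoter entries held a match. GAGGAAGT was found for 2 of 26 (7.69%), C1qc and Pf4, against 2.79% of all genes with promoter sequence. TTCNNNGAA was found in 1 of 26 (3.85%), against 8.13%. The composite PU.1 and IRF motif, GGAA followed after any 2 bases by GAAA, was found in Clec7a alone (3.85%, against 2.68%), and the C/EBP motif TTGCNNAA in 3 of 26, Cd68, Fcgr3 and Pf4 (11.5%, against 10.8%). A match describes the letters of the window and does not show that a factor binds there.

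Libraries held 11141028 to 13454395 expected counts, so a floor of 3 counts equals 0.223 to 0.269 CPM (expected counts of a gene over all counts of its library, on the usual CPM scale). The libraries fell on 2 sides of the 100 CPM limit for Lyz2 with nothing near it. The lowest library above it was VIN-R 1 at 182 CPM, and 4 libraries had 0 CPM, namely Control 1 and the third replicates of ERI-R, PAC-R and VIN-R. Each group therefore held 2 libraries with Lyz2 and 1 without. The 8 and the 4 libraries were parted by a measured value and were not tested against each other. Marker genes of breast tumour cells (Krt8, Krt18, Epcam, Cdh1, Vim and Krt14) summed to 1477 to 7124 CPM in the 8 libraries and to 2613 to 8787 CPM in the 4. The sum hides genes that moved apart, since over the 4 Vim ranged from 16.3 to 3917 CPM and Krt14 from 0 to 788 CPM. It is therefore no measure of the amount of tumour cells. In bulk RNA, fewer cells of a type and less RNA per cell cannot be told apart.

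The 35 genes together took 0.636% of the counts in Control 2 and 0.257% in Control 3. In the first 2 replicates of the resistant lines they took 0.424% and 0.271% for ERI-R, 1.12% and 0.478% for PAC-R, and 0.179% and 1.04% for VIN-R. Without Lyz2 they took 0.00595% in Control 1, 0.0145% in ERI-R 3, 0.00718% in PAC-R 3 and 0.00644% in VIN-R 3. PAC-R 1 was the highest library, followed by VIN-R 2, and VIN-R 1 was the lowest of the 8, so the VIN-R libraries lay far apart. Of the 35 genes, 27 reached at least 10 CPM in each of the 8 libraries and 6 exceeded 100 CPM in each.

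**Figure D1:**
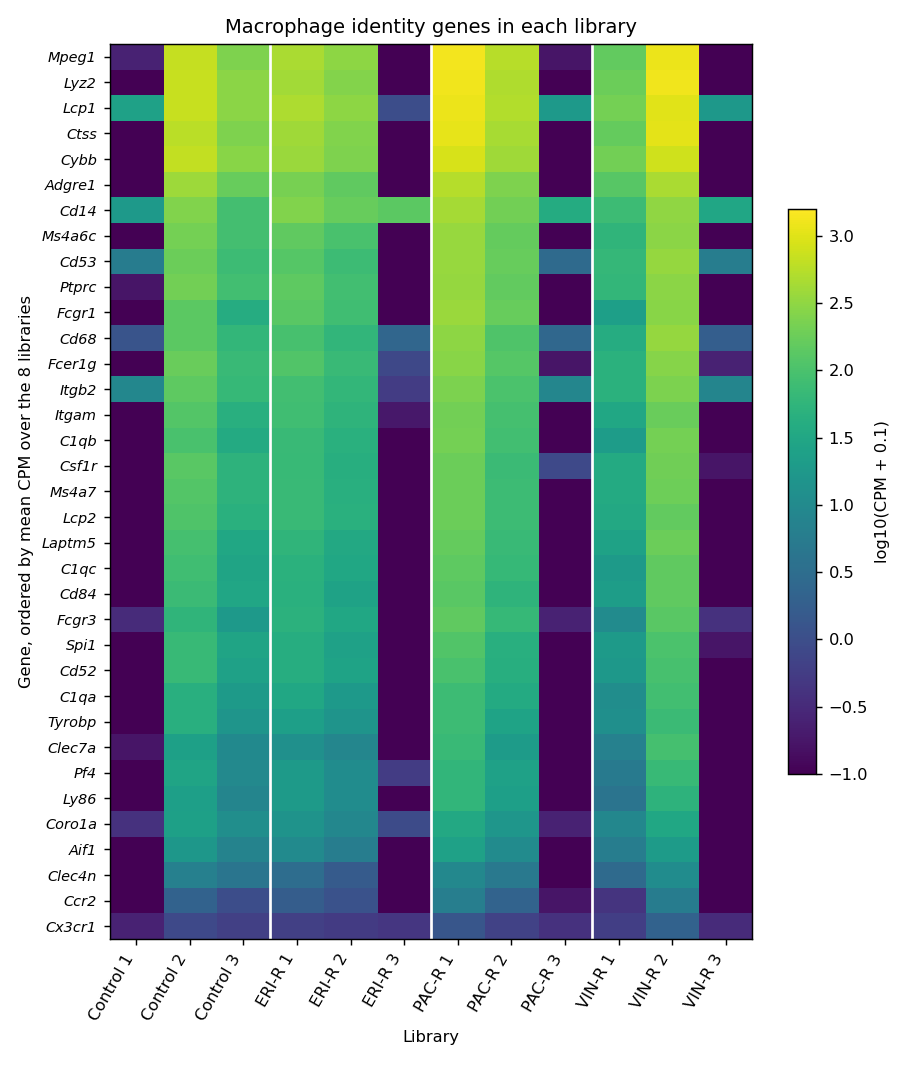
Level of each of the 35 genes (rows, ordered by mean CPM over the 8 libraries with Lyz2) in each of the 12 libraries (columns, white lines between groups), as log10 of CPM plus 0.1. The columns of the 4 libraries without Lyz2 are dark for most genes, while Cd14, Lcp1, Itgb2, Cd53 and Cd68 stay above 1 CPM in some of them.

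Lyz2 encodes the lysozyme of macrophages and granulocytes. Replicates 1 to 3 of Control had 0, 698 and 290.1 CPM, those of ERI-R 415, 266 and 0 CPM, those of PAC-R 1271, 506 and 0 CPM, and those of VIN-R 182, 1271 and 0 CPM. All 4 groups overlapped, and PAC-R and VIN-R each spanned the whole range. Lyz1, its near copy, had at most 6 counts in any library, and reads that match both genes are divided between them by the counting. Ptprc, the leukocyte phosphatase CD45, ranged from 59.2 to 348 CPM over the 8 libraries (median 148) and reached at most 0.0743 CPM in the 4.

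Csf1r, the receptor for the growth factor CSF1, ranged from 37.1 to 191 CPM in the 8 libraries (median 69.9). It had 0 counts in Control 1 and ERI-R 3, 0.749 CPM in PAC-R 3 and 0.0748 CPM in VIN-R 3. Adgre1, the adhesion receptor F4/80 that is widely used to stain mouse macrophages, ranged from 128 to 531 CPM (median 233) and had 0 counts in all 4 of the others. Spi1 ranged from 19.4 to 115 CPM (median 43.1) with at most 0.0748 CPM in the 4. The receptor, the surface marker and the transcription factor were thus all present in the same 8 libraries.

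C1qa, C1qb and C1qc encode the 3 chains of the complement protein C1q, which tags immune complexes and dying cells and is made largely by macrophages. They lie side by side on chromosome 4 (chr4:136880129-136898803, GRCm38, minus strand). C1qa had a median of 34.1 CPM in the 8 libraries (11.6 to 83.4), C1qb 78.2 CPM (21.2 to 214) and C1qc 56.4 CPM (19.4 to 152), and all 3 had 0 counts in the 4. C1qb stood at 1.83 to 2.73 times C1qa in counts, and C1qc at 1.46 to 1.86 times C1qa, so the chains kept their order in each of the 8 libraries.

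Fcer1g and Tyrobp are adaptors whose signalling motifs pass on signals from antibody receptors and lectins. Fcer1g ranged from 48.5 to 281 CPM (median 119.5) and Tyrobp from 12.4 to 75.9 CPM (median 25.4). Fcgr1, the high-affinity IgG receptor CD64, had the widest CPM range of the well-counted genes, from 23.6 CPM in VIN-R 1 to 364 CPM in PAC-R 1 (median 136). Fcgr3, the activating low-affinity IgG receptor that pairs with Fcer1g, ranged from 10.6 to 150.2 CPM (median 53.4). The 2 IgG receptors kept close to each other, since Fcgr1 had 2.14 to 2.66 counts per count of Fcgr3.

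Among pattern receptors, Cd14, the coreceptor for bacterial lipopolysaccharide, ranged from 76.0 to 427 CPM (median 228). Clec7a, the beta-glucan receptor Dectin-1, ranged from 7.04 to 92.9 CPM (median 16.6), and Clec4n, the related Dectin-2, from 1.48 to 11.1 CPM (median 4.56). Ly86, the partner of the toll-like receptor relative RP105, ranged from 4.02 to 58.8 CPM (median 21.2). Cd14 was far above the lectins, and unlike them it was also present in libraries without Lyz2, as described further on.

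Itgam and Itgb2 form the integrin CR3, which binds complement-coated particles. Itgam ranged from 31.9 to 199.5 CPM (median 85.6) and Itgb2 from 48.0 to 237 CPM (median 93.7). Lcp1 (L-plastin) and Coro1a (coronin), which organise actin in leukocytes, had medians of 501 and 15.0 CPM, and Aif1 (IBA1), another actin-binding protein of macrophages, had 10.5 CPM. Lcp2, the adaptor SLP-76, had a median of 72.5 CPM.

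Effector genes were among the highest. Ctss, the lysosomal protease cathepsin S that trims antigens, ranged from 158 to 1118 CPM (median 423), and Mpeg1, the pore-forming perforin-2, from 155 to 1328 CPM (median 516). Cybb, the catalytic subunit of the phagocyte NADPH oxidase, ranged from 203 to 893 CPM (median 388). Cd68, a lysosomal glycoprotein, had a median of 104.5 CPM, and Laptm5, a lysosomal membrane protein of leukocytes, 62.1 CPM. The protease, the pore and the oxidase were thus high and low in the same libraries as the receptors.

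Chemokine receptors were the lowest. Ccr2, the receptor that brings monocytes into tissue, ranged from 0.335 to 6.205 CPM in the 8 libraries, and Cx3cr1, the fractalkine receptor of patrolling monocytes and microglia, from 0.436 to 2.01 CPM. Cx3cr1 had 0.149 to 0.359 CPM in the 4 libraries without Lyz2, so it stood little above them. Pf4, a chemokine of platelets and of some macrophages, ranged from 5.28 to 66.6 CPM (median 22.3). The remaining genes encode membrane proteins of leukocytes, and their medians in the 8 libraries were 157 CPM for Ms4a6c, 145 CPM for Cd53, 72.4 CPM for Ms4a7, 50.1 CPM for Cd84 and 41.9 CPM for Cd52.

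Levels of different genes were compared per length, in the deposited TPM, an abundance scaled by transcript length. Over the 8 libraries Lyz2 averaged 847 ± 605 TPM (SD, n = 8) and Ctss 712 ± 492 TPM. Fcer1g followed at 466 ± 293 TPM and Lcp1 at 274 ± 168 TPM. These SDs include the spread in the amount of all transcripts of the set between libraries. At the other end stood Clec4n at 8.26 ± 5.17 TPM, Ccr2 at 1.22 ± 1.07 TPM and Cx3cr1 at 0.369 ± 0.245 TPM. Fcer1g, mid-range in CPM, was thus among the highest per length.

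In the 4 libraries without Lyz2, 18 of the 35 genes had 0 counts in all 4, and 24 had at most 3 counts in each. The other 11 exceeded 3 counts in at least 1 of them. Cd14 was the highest, with 17.8 CPM in Control 1, 139 CPM in ERI-R 3, 38.6 CPM in PAC-R 3 and 30.5 CPM in VIN-R 3. Lcp1 had 25.1 CPM in Control 1, 0.898 CPM in ERI-R 3, 18.1 CPM in PAC-R 3 and 17.4 CPM in VIN-R 3. ERI-R 3 was therefore the highest of the 4 for Cd14 and the lowest for Lcp1.

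Itgb2 and Cd53 were also lowest in ERI-R 3. Itgb2 stood at 8.77 CPM in Control 1, 0.449 CPM in ERI-R 3, 8.39 CPM in PAC-R 3 and 8.07 CPM in VIN-R 3. Cd53, a tetraspanin of leukocytes, stood at 5.80, 0, 2.77 and 5.83 CPM in that order. Cd68 was low and even, at 1.115, 2.33, 2.47 and 1.72 CPM. With 1 such library per group these values have no replicate check, and no test was made. ERI-R 3 also differed in the mesenchymal filament gene Vim, at 16.3 CPM against 2930 to 3917 CPM in the other 3, and the part of cell state in the levels of Lcp1, Itgb2, Cd53 and Cd14 was not tested.

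**Figure D2:**
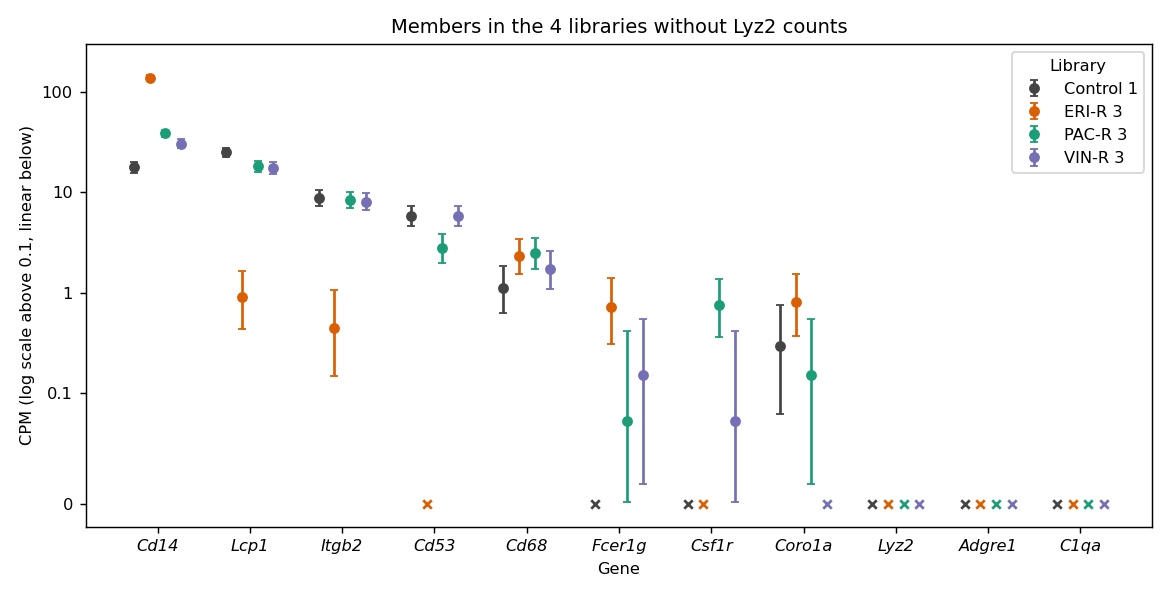
CPM of 11 of the 35 genes in the 4 libraries without Lyz2 (colours), on a log axis above 0.1 CPM and a linear one below, with bars for the 95% exact Poisson interval of the count (counting error only) and crosses for 0 counts. In ERI-R 3, Lcp1 lies at 0.898 CPM, Itgb2 at 0.449 CPM and Cd53 at 0 counts, and these genes lie above 2 CPM in the other 3. Lyz2, Adgre1 and C1qa have 0 counts in all 4.

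The comparison of each resistant line with the parental line and of the lines with each other asks whether the resistant lines differ in these genes. Between the groups of 3, none of the 34 genes that passed the filter on low counts was called in any of the 6 comparisons (edgeR quasi-likelihood test, Benjamini-Hochberg adjusted p under 0.05 over 14226 genes). Cx3cr1 did not pass the filter. None had an unadjusted p under 0.05 either, and DESeq2 called 0. Over all genes, 19.2% were called between ERI-R and Control, 18.7% between ERI-R and PAC-R and 19.3% between ERI-R and VIN-R, and 0.0% in each of the 3 comparisons without ERI-R. Mean Lyz2 was 329 ± 351 CPM in Control, 227 ± 210.1 CPM in ERI-R, 592 ± 639.8 CPM in PAC-R and 484 ± 687 CPM in VIN-R (SD, n = 3), each SD near or above its mean. Given this spread within groups, 0 calls do not show that the groups are alike in these genes.

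The median log2 fold change of the 34 genes against Control was −0.63 for ERI-R, 0.92 for PAC-R and 0.54 for VIN-R, where all genes tested had medians of 0, 0.05 and 0.04. These comparisons share the Control libraries. The direction of each median depended on single libraries. Without Control 2 the ERI-R median became 0.60, and without ERI-R 3 it became 0.08. Without PAC-R 1 the PAC-R median became −0.33, and without VIN-R 2 the VIN-R median became −1.72. No direction against Control can be read from these levels.

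Ratios between the genes were then compared within the 8 libraries. A scale factor was computed for each library as the median, over the 35 genes, of a gene's count over its geometric mean in the 8 libraries. Control 2 had a factor of 1.46 and Control 3 of 0.553. In replicates 1 and 2 of each line it was 0.867 and 0.571 for ERI-R, 2.35 and 1.05 for PAC-R, and 0.409 and 2.49 for VIN-R. A gene's count divided by this factor, set to a geometric mean of 1, is its level relative to the typical gene of the set.

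The genes varied far less in these relative levels than in CPM. The highest library stood a median of 6.26-fold over the lowest in CPM (3.99 to 18.5 over the 35 genes) and a median of 1.37-fold in relative level (1.14 to 3.10). In relative level 21 genes spanned under 1.5-fold and 26 under 2-fold. The most constant were the adaptor Fcer1g at 1.14-fold, Lyz2 and Spi1 at 1.17-fold and Ctss at 1.18-fold. Since the factor is a median over these same genes, a smaller range than in CPM is partly built in. Against a single gene the median range was 1.46-fold over Lyz2 and 1.48-fold over Ptprc.

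Pairs of genes showed the same without any common factor. Of 351 pairs among the 27 genes with at least 100 counts in each of the 8 libraries, 170 had a ratio that spanned under 1.5-fold and 79 one that spanned 2-fold or more. The ratio of Adgre1 to Cybb lay between 0.587 and 0.632, a range of 1.08-fold, and that of Ptprc to Lcp1 between 0.279 and 0.301, also 1.08-fold. The widest was Adgre1 over Fcgr1, from 1.46 in PAC-R 1 to 5.42 in VIN-R 1, a range of 3.72-fold. The surface receptor and the oxidase subunit thus kept 1 ratio through all 8 libraries, while the antibody receptor did not keep to them.

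**Figure D3:**
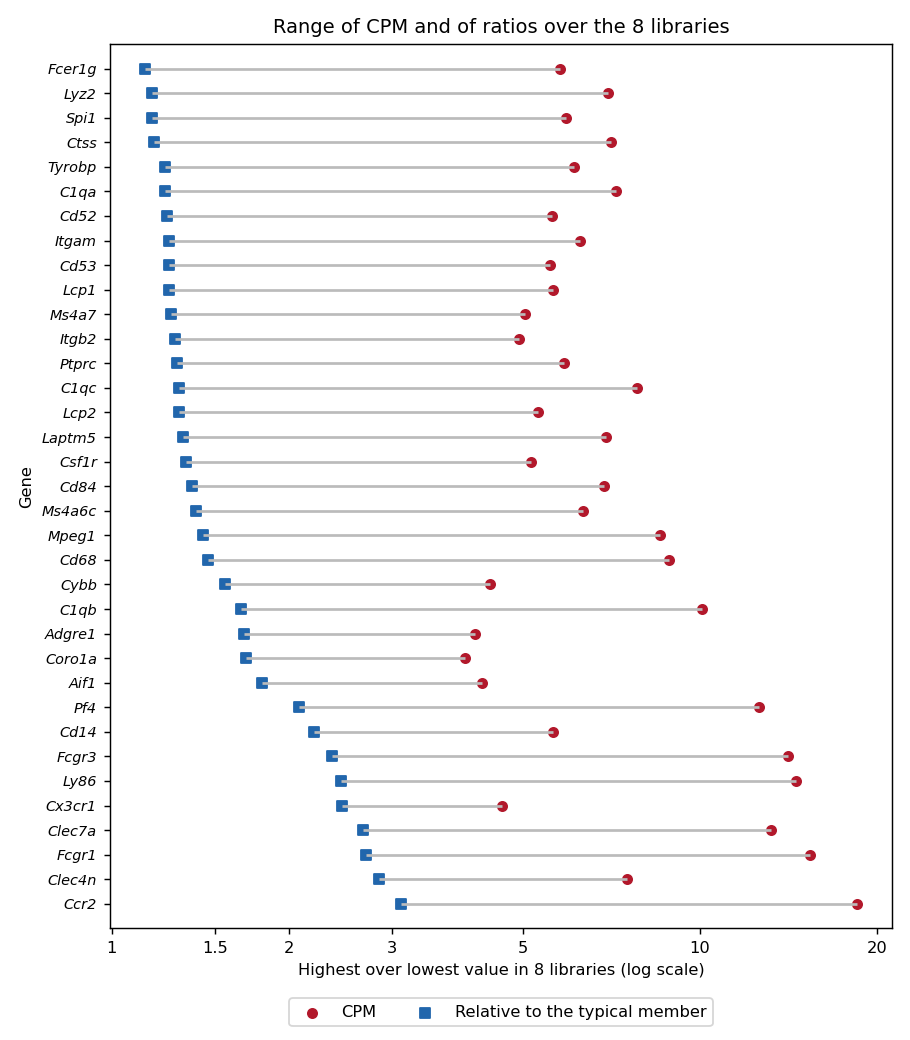
Highest over lowest value in the 8 libraries with Lyz2 for each of the 35 genes (log axis), in CPM (circles) and relative to the typical gene of the set (squares). CPM ranges lie between 3.99 and 18.5, and 26 of the 35 squares lie under 2, with Fcgr1, Clec7a, Clec4n and Ccr2 at the bottom above 2.5.

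The 9 genes that spanned 2-fold or more in relative level were Ccr2, Clec4n, Fcgr1, Clec7a, Cx3cr1, Ly86, Fcgr3, Cd14 and Pf4. Counting error is wide for Ccr2 (3.10-fold, lowest count 4), Cx3cr1 (2.46-fold, lowest count 5) and Clec4n (2.85-fold, lowest count 17). For Fcgr1 (2.71-fold, lowest count 282) and Cd14 (2.21-fold, lowest count 907) it is small. The more variable genes are thus 2 IgG receptors, 2 lectins, Cd14 with Ly86, and 3 chemokine or chemokine receptor genes.

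Relative to the typical gene, Fcgr1 stood at 0.889 in Control 2 and 0.607 in Control 3. It stood at 1.32 and 1.28 in replicates 1 and 2 of ERI-R, at 1.37 and 1.43 in those of PAC-R and at 0.529 and 1.06 in those of VIN-R. Both Control libraries lay below all 4 libraries of ERI-R and PAC-R, and VIN-R spanned the Control range and beyond. Fcgr3 had the same order, at 0.872 and 0.680 (Control), 1.18 and 1.18 (ERI-R), 1.35 and 1.35 (PAC-R) and 0.569 and 1.16 (VIN-R). Ly86 stood at 0.911 and 0.772 (Control), 1.19 and 1.04 (ERI-R), 1.36 and 1.28 (PAC-R) and 0.556 and 1.18 (VIN-R). For all 3 genes VIN-R 1, the library with the fewest transcripts of the set among the 8, was the lowest.

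Adgre1 and Cybb ran the other way. Adgre1 stood at 1.11 and 1.16 (Control), 0.963 and 1.01 (ERI-R), 0.881 and 0.950 (PAC-R) and 1.27 and 0.754 (VIN-R). Cybb stood at 1.10 and 1.17, 0.989 and 1.01, 0.892 and 0.933, and 1.21 and 0.772 in the same order. Control was above ERI-R and PAC-R for both, and VIN-R 1 and VIN-R 2 were the highest and the lowest library.

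Clec7a was low in ERI-R, at 0.726 and 0.722, against 0.875 and 0.847 (Control), 1.49 and 1.00 (PAC-R) and 0.891 and 1.94 (VIN-R). Cd14 was high in ERI-R, at 1.43 and 1.49, against 0.947 and 0.785 (Control), 0.925 and 1.03 (PAC-R) and 0.980 and 0.674 (VIN-R). Both ERI-R libraries lay above all 6 others for Cd14 and below them for Clec7a. ERI-R 3, without Lyz2, also had the highest Cd14 of the 4 libraries without it, at 139 CPM. ERI-R 1 and 2 had 251 and 168 CPM, and how much of this came from cells that do not express Lyz2 was not tested.

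**Figure D4:**
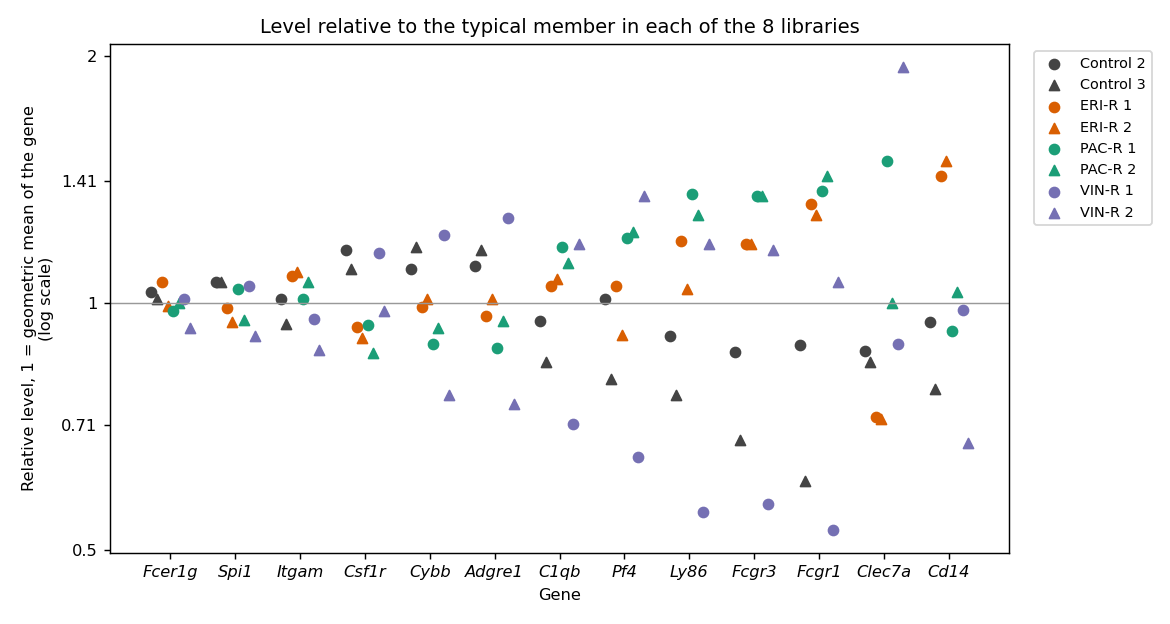
Level of 13 of the 35 genes relative to the typical gene of the set (log axis, 1 is the gene's geometric mean) in each of the 8 libraries with Lyz2, coloured by group, with no error bars because each point is 1 library. Fcer1g and Spi1 stay between 0.912 and 1.06, Fcgr1 reaches from 0.529 in VIN-R 1 to 1.43 in PAC-R 2, and both ERI-R libraries are the highest for Cd14.

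Libraries with like amounts of these transcripts still differed in the variable genes. Control 3 and ERI-R 2 had factors of 0.553 and 0.571. There Fcgr1 stood at 0.607 and 1.28, Cd14 at 0.785 and 1.49, and Clec4n at 1.62 and 0.568. PAC-R 1 and VIN-R 2, the highest libraries, had factors of 2.35 and 2.49, and there Fcgr1 stood at 1.37 and 1.06 and Clec7a at 1.49 and 1.94.

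The differences between groups were tested in the 8 libraries, 2 per group. An edgeR quasi-likelihood fit on the factor over 14388 genes called 0 of the 35 genes in each of the 6 comparisons and over the 4 groups together (Benjamini-Hochberg adjusted p under 0.05), with 0 at an unadjusted p under 0.05 and 0 by DESeq2. Of all genes it called 4.66% between ERI-R and Control, 0.00695% between PAC-R and Control, 0.0% between VIN-R and Control, 5.03% between ERI-R and PAC-R, 5.78% between ERI-R and VIN-R, 0.00695% between PAC-R and VIN-R and 6.65% over the 4 groups. Genes of the tumour cells make up part of that fit, and its common biological coefficient of variation was 0.729. On data simulated for ERI-R against Control, with 8 well-counted genes of the set changed, it recovered 0 at 1.5-fold and 0 at 2-fold. Its 0 calls thus say nothing about whether the 35 genes differ.

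A fit confined to genes with at most 3 counts in each of the 4 libraries without Lyz2 was therefore added after the data had been seen. It held 551 genes, 24 of them from the set, and its coefficient of variation was 0.326. It called 0 of the 24 in each comparison, where 0.363% of its genes were called between ERI-R and Control, 0.0% between PAC-R and Control, 0.0% between VIN-R and Control, 1.09% between ERI-R and PAC-R, 1.27% between ERI-R and VIN-R, 0.0% between PAC-R and VIN-R and 1.63% over the 4 groups. At an unadjusted p under 0.05 it held 2, 1, 0, 0, 3, 2 and 1 of the 24 genes in that order, and DESeq2 called 0 in each. In the simulated data the confined fit recovered 6 of the 8 changed genes of the set at 1.5-fold and 8 at 2-fold. The spread simulated for these genes was below the coefficient of variation of this fit. Its 0 calls therefore do not show that the groups are alike.

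In the confined fit Fcgr1 was 0.79 higher on the log2 scale in ERI-R than in Control (edgeR adjusted p = 0.286) and 0.90 higher in PAC-R (edgeR adjusted p = 0.41), where the SD within groups was 0.41. Clec4n stood at −0.99 in ERI-R against Control (edgeR adjusted p = 0.225). Clec7a stood at −0.98 in ERI-R against VIN-R (edgeR adjusted p = 0.223). Cd14 exceeded 3 counts in each of the 4 libraries and Fcgr3 in VIN-R 3, so neither was in this fit. These differences did not pass the test in the confined fit on all 8 libraries. With the factor as a covariate instead, on TMM-scaled counts of all genes in the same 8 libraries, edgeR called 3 of the 35 genes between ERI-R and Control, Fcgr1 (log2 fold change 0.95), Fcgr3 (0.75) and Clec4n (−1.07), beside 27.5% of all genes. It called 2 between ERI-R and VIN-R, Fcgr1 (0.98) and Cd14 (0.77), beside 28.6%, and Fcgr1 alone over the 4 groups, beside 21.7%. These shares of the set were below those of all genes.

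The calls in the confined fit depended on the VIN-R libraries. Without VIN-R 1 or without VIN-R 2, with the lone VIN-R library assumed to vary like the other groups, the confined fit called 7 and 5 of the 24 genes between PAC-R and Control, beside 13.9% and 12.2% of all genes in it. The 5 called in both were Fcgr1 (log2 fold change 0.90 and 0.88), Ly86 (0.64 and 0.63) and Mpeg1 (0.28 and 0.27), higher in PAC-R, and Adgre1 (−0.31 and −0.33) and Cybb (−0.32 and −0.33), lower in PAC-R. C1qb (0.35) and Clec7a (0.53) were called only without VIN-R 1.

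Between ERI-R and Control the same fits called 4 and 2 genes, beside 18.0% and 15.4% of all genes. Fcgr1 (0.82 and 0.79) was higher in both and Clec4n (−0.96 and −0.96) lower in both, and Ly86 (0.42) and Mpeg1 (0.23) were called without VIN-R 1 alone. Between ERI-R and PAC-R each called 1 gene, Clec7a (−0.76 and −0.78), beside 9.63% and 8.96%. Percentages of all genes in this and the next paragraph refer to the genes in the confined fit. Shares of the 24 genes in the fits for ERI-R and Control were near or below those percentages. For PAC-R and Control they were above them, and that excess was not tested. Without any 1 of the 6 other libraries 0 of the 24 genes were called in these 3 comparisons.

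Comparisons with VIN-R itself turned on which VIN-R library was kept. With VIN-R 2 kept, Clec7a stood at 1.18, Adgre1 at −0.58 and Cybb at −0.54 against Control, the 3 genes called, beside 6.95% of all genes. With VIN-R 1 kept 0 were called against Control, beside 1.4%. For Adgre1 the log2 fold change of ERI-R was −0.35 against VIN-R 1 and 0.40 against VIN-R 2, both called and in opposite directions. Of the 24 genes, 5 and 6 were called between ERI-R and VIN-R without VIN-R 1 and without VIN-R 2, beside 14.7% and 15.1% of all genes. Between PAC-R and VIN-R 0 and 6 were called, beside 0.267% and 17.5%. Over the 4 groups 8 and 7 were called, beside 28.3% and 27.7%.

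Related genes from fixed lists were measured in the same libraries. Of 18 other macrophage surface receptors, 7 reached 1 CPM in each of the 8 libraries with at most 3 counts in the 4, and the list summed to 715 to 3937 CPM in the 8 and 22.4 to 36.9 CPM in the 4. Its highest genes were Clec4e, the lectin Mincle (225 to 865 CPM in the 8 and 0 in the 4), C3ar1, the receptor for the complement fragment C3a (88.0 to 709 CPM), Sirpa, the receptor for the signal CD47 (111 to 543 CPM), and Msr1, a scavenger receptor (89.8 to 602 CPM). Sirpa also had 4.41 to 8.54 CPM in the 4. Between ERI-R and Control 1 of the 18 was called, beside the 19.2% of all genes: Cd163, a haemoglobin scavenger receptor, rose (log2 fold change 2.47, edgeR adjusted p = 0.00425) at no more than 2.53 CPM in any library.

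Of 17 signalling partners, 7 were likewise limited to the 8 libraries at 1 CPM or more. Lyn, Fyb and Syk, which act below antibody receptors and lectins, were the highest, at 88.3 to 354, 56.5 to 316 and 69.7 to 314 CPM in the 8. Each was also present in some of the 4, Fyb with 112 CPM in ERI-R 3 alone and Lyn and Syk with 42.3 and 13.6 CPM in Control 1. Csf1, the ligand of Csf1r, was present in all 12 libraries, at 61.9 to 112.5 CPM in the 8 and 32.4 to 202 CPM in the 4. Csf1 fell in ERI-R against Control (−1.38, edgeR adjusted p = 0.0367), as did Il34, the other ligand (−1.70, edgeR adjusted p = 0.0404), and the other 15 were not called, beside the 19.2% of all genes called.

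Of 12 other myeloid regulators, 10 exceeded 3 counts in at least 1 of the 4 libraries without Lyz2, and 2 (Ikzf1 and Tfec) reached 1 CPM in the 8 with 0 counts in the 4. The highest were Runx1, Cebpb, Klf4 and Maf, at 96.5 to 280.5, 81.2 to 165, 12.6 to 173 and 26.7 to 199 CPM in the 8. Runx1 (−1.35, edgeR adjusted p = 0.00393) and Klf4 (−2.22, edgeR adjusted p = 0.00634) fell and Batf3 rose (5.00, edgeR adjusted p = 0.00571) in ERI-R against Control, and 9 of 12 were not called, again beside 19.2% of all genes. Batf3 had 19.5 CPM in ERI-R 3 but 2.59 and 2.53 CPM in ERI-R 1 and 2, against 0.149 to 0.356 CPM in Control. The size of its rise thus rests largely on 1 library. In the 2 other comparisons with Control 0 genes of these 3 lists were called by edgeR, and 0 of the 47 had an unadjusted p under 0.05.

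Markers of tissue-resident macrophages were present in part. Of 16, 7 had at most 3 counts in each of the 12 libraries, and Vsig4, Clec4f, Sall1 and Lyve1 had 0 counts in all. Spic, a relative of PU.1 in iron-recycling macrophages, reached 20.9 to 54.8 CPM in the 8 and 0 in the 4, and Folr2, a folate receptor, 5.95 to 51.8 CPM against at most 0.0898 CPM. Acp5, an acid phosphatase of osteoclasts and some macrophages, had 8.89 to 24.5 CPM in the 8 and 0.520 to 6.37 CPM in the 4. Gata6, which is known in peritoneal macrophages, had 32.5 CPM in Control 1 without Lyz2 and so did not follow the set.

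Markers of other leukocytes moved with the set in part. The 13 neutrophil genes summed to 35.6 to 384 CPM in the 8 libraries and 10.6 to 38.3 CPM in the 4, with S100a9 at 6.37 to 118 CPM and Ngp at 5.87 to 101 CPM in the 8, while Ly6g had 0 counts in the 8. Monocyte genes summed to 35.7 to 150.3 CPM in the 8 and 67.6 to 217 CPM in the 4, and the top of the latter rests on Hp at 210.4 CPM in ERI-R 3. Of 12 genes of T and NK cells, 10 had at most 3 counts in each of the 12 libraries, and Cd3e had 0. The part of neutrophils or monocytes in the levels of Lyz2, Itgam, Itgb2, Fcer1g and Tyrobp, which these cells also express, was not tested.

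Genes outside the set with the most similar pattern were named by a rule: at most 3 counts in each of the 4 libraries, at least 10 CPM in each of the 8, and the smallest SD of log2 relative level over the 8. Of 55573 genes, 93 met both limits, 19 from the set and 74 others, with a median SD of 0.127 and 0.23. The 10 nearest were Acod1, Tlr1, Msr1, Plek, Cd48, Slc7a8, Nlrp3, Itga4, Bcl2a1b and Igsf6. Their SD lay between 0.0629 (Acod1) and 0.107 (Igsf6). Acod1, the enzyme that makes itaconate in activated macrophages, had 271 to 1710 CPM in the 8, with a range of 1.15-fold in relative level. The likeness is a description over 8 libraries that share the factor. Since the factor is a median over the genes of the set, their smaller median SD is partly built in. Bcl2a1b has near-identical copies, so its count is uncertain.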

How the data were processed

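The authors deposited RSEM gene tables, 1 per library. Per the file headers, the expected count is an estimated count of read pairs per gene, and the deposited TPM values are scaled by length within a library. The deposited effective length was read but not used for a result. Libraries were made from 200 ng of RNA (Kapa mRNA HyperPrep, paired ends of 76 bases, per the labels' protocols). The build GRCm38 and the tools RSEM 1.3.2, STAR 2.7.2b, cutadapt 2.4 and bcl2fastq 2.20.0.422 are named, per the submitters' processing notes, and neither annotation nor strand setting is stated there. Symbols and positions came from GENCODE M21 (GRCm38), matched for 55394 of 55573 genes.

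The members and lists were chosen with earlier results of these data known. CPM is the expected count over the library total. For tests, counts were rounded (15.3% of values changed), filtered with filterByExpr and fitted with edgeR 4.0.16 (glmQLFit, robust, TMM or the member factor as offset; R 4.3.3, limma 3.58.1). DESeq2 1.42.0, other scalings and denominators, no filter, the replicate block and leaving out each library were the alternatives. The members were all nameable, genes outside them by list or by the rule of likeness given with the result, with up to 4 of the highest per list, and other list genes (Cd163, Batf3, Il34, Ikzf1, Tfec, Gata6, Ly6g, Hp and those at 0) were named after their values were seen. The scripts were tested on simulated data. Intervals and floors cover counting error only.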

Additional observations from a re-analysis of the deposited data

How the results depend on the processing

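No member was called between the groups of 3 under any of the 17 alternatives run in each comparison. Each group mixed libraries with and without Lyz2 in most of them. The exceptions were the alternative on the 8 libraries with Lyz2 alone and any group whose library without Lyz2 was left out. The simulation did not measure whether these fits detect changes in members. These 0 calls are therefore no sign that the groups are alike. The members' factor was also used as a covariate on TMM-scaled counts in the fit on all genes of the 8 libraries. That fit called 3 members between ERI-R and Control (Fcgr1, Fcgr3 and Clec4n, beside 27.5% of all genes). It called 2 between ERI-R and VIN-R (Fcgr1 and Cd14, beside 28.6%) and 1 over the 4 groups (Fcgr1, beside 21.7%). The other 15 alternatives, 1 of them the confined fit, called 0 in these comparisons. In data simulated for ERI-R against Control, the main fit on all genes recovered 0 of 8 changed members at 1.5-fold and at 2-fold. The confined fit recovered 6 and 8 of 8, with less spread simulated than its coefficient of variation in the data. The remaining alternatives were not simulated, and their 0 calls are no sign of stability. In the fit on confined genes, leaving out each library in turn gave 0 to 4 members between ERI-R and Control, 0 to 7 between PAC-R and Control, 0 to 3 between VIN-R and Control, 0 to 1 between ERI-R and PAC-R, 0 to 6 between ERI-R and VIN-R, 0 to 6 between PAC-R and VIN-R and 0 to 8 over the 4 groups, the counts above 0 coming without VIN-R 1 or VIN-R 2. The median range of relative levels was 1.37-fold, and 1.46 over Lyz2, 1.48 over Ptprc, 1.38 as a share of the sum and 1.3 to 1.37 with a library left out. Replicate numbers were not taken as pairs: over 18 same-numbered pairs the correlation of deviations lay between −0.863 and 0.917, and 5 of 12 libraries correlated best with their own number. With the replicate block 0 members were called in any fit. In the 12-library fit the block moved the median log2 fold change against Control to −4.51 in ERI-R, −3.17 in PAC-R and −3.57 in VIN-R. Without the block these medians were −0.63, 0.92 and 0.54. The library without Lyz2 is number 1 in Control and number 3 in each line. The block thus sets Control 1 against replicates with Lyz2, and its medians cannot be read as falls in the lines. Depth limits Ccr2, Cx3cr1 and Clec4n most. The cause of the differences in these genes between libraries was not tested.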
